A study of Mus musculus with 14 samples.

Results

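The genes described here encode matrix proteins of cartilage other than the collagens: Acan, Hapln1, Comp, Matn1, Matn3, Matn4, Chad, Cilp, Prg4 and Abi3bp. They were matched by gene symbol and are 10 of the 30503 genes in the count table. They were selected on the levels they showed in these same 14 clones, so their levels and their differences between groups are a description and carry no p-value. The clones were single tdTomato+ cells of mouse femoral marrow expanded in culture, and each was measured by bulk RNA-seq. All mice carried Fgfr3-creER, a transgene that expresses a tamoxifen-inducible Cre recombinase under Fgfr3 regulatory sequences, with the R26R(tdTomato/+) reporter, and all received tamoxifen at postnatal day 21. The 5 Fgfr3-WT clones had unmodified Trp53 and were isolated at P23 (postnatal day 23). The Fgfr3-p53 cKO clones also carried Trp53fl/fl, so that Cre deletes the gene encoding p53, and 5 of them were isolated at P28 and 4 at P4M (4 months). By the labels the Fgfr3-WT and P28 clones were at passage 8 and the P4M clones at passages 6 to 8, whereas the methods give passages 6 to 8 for both cKO groups. Every cell of a library descends from a single founder, so the libraries describe culture-grown clones that survived passaging and not the marrow as a whole.

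Cartilage resists compression because aggrecan, a large proteoglycan covered with chondroitin sulfate chains, holds water inside a collagen network. Aggrecan is anchored on hyaluronan by link protein, the product of Hapln1, while cartilage oligomeric matrix protein (Comp), the matrilins (Matn1, Matn3, Matn4) and chondroadherin (Chad) are adaptors between collagens, proteoglycans and cells. Cilp is found in the intermediate layer of articular cartilage, Prg4 encodes lubricin of the joint surface, and Abi3bp encodes an adhesive matrix protein that is not restricted to cartilage. SOX9, with SOX5 and SOX6, is the transcription factor set that activates cartilage matrix genes such as Acan.

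Depth, genotype and cell identity were checked over the whole table first. Total counts were between 25688946 and 52857424 per clone, and levels below are counts scaled to library size (CPM, with TMM factors) unless TPM, which also corrects for gene length, is named. A count of 0 allows up to 3 counts, which is 0.0564 to 0.121 CPM depending on the library, and this limit covers counting error only. Trp53 was at 49.9 to 68.2 CPM in the Fgfr3-WT clones and at 1.72 to 2.84 CPM in the cKO clones. The titles of all Fgfr3-WT libraries carry the number 1303 and those of all cKO libraries 2963. The labels do not say what this number stands for, and whatever differs with it cannot be told apart from genotype. No Fgfr3-WT clone was isolated at P28 or P4M. In comparisons with Fgfr3-WT, age at isolation and time since tamoxifen therefore cannot be told apart from genotype either. The labels name no animals. The p-values given for other genes set a group difference against the spread between these clones, and they do not measure differences between mice. In bulk RNA a smaller share of expressing cells and less RNA per cell cannot be told apart.

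By the GENCODE M21 annotation of mm10, Acan lies on chromosome 7 at 79053483 to 79115099 on the plus strand. The next gene, Hapln3, lies on the minus strand at 79115102 to 79131018, so that its 3′ end faces the 3′ end of Acan. Hapln1 lies on chromosome 13 at 89539796 to 89611652, next to Vcan, which encodes versican. No annotated gene overlaps Acan, Comp, Matn1, Matn3, Cilp or Abi3bp. Hapln1 overlaps the pseudogene Gm8546, Matn4 overlaps Rbpjl, Chad overlaps Acsf2 and Prg4 overlaps Tpr. The library kit does not mark strand, so reads where such genes overlap cannot be assigned to either.

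Of the members, Chad and Hapln1 ran most like Acan from clone to clone, though Chad had few counts in most clones. For that reason the promoters of Acan, Hapln1 and Chad are shown. Each is the 250 bases before the RefSeq start (GRCm38.p6), from 5′ to 3′ in the direction of the gene. Capitals mark a TATA box (TATAAA) or a GC box (GGGCGG), searched on both strands, which for the GC box can read CCGCCC.
Acan, chr7:79052976-79053225, plus strand: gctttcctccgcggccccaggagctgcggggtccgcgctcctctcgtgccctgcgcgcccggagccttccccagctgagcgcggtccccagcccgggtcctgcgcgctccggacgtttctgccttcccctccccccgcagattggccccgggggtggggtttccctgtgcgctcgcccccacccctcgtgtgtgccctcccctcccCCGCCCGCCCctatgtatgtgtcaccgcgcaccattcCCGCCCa
Hapln1, chr13:89540386-89540635, plus strand: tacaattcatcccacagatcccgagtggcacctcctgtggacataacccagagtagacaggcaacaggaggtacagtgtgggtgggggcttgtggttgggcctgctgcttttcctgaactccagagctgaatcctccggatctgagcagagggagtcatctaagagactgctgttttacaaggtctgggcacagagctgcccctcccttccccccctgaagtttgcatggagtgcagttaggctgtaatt
Chad, chr11:94564797-94565046, plus strand: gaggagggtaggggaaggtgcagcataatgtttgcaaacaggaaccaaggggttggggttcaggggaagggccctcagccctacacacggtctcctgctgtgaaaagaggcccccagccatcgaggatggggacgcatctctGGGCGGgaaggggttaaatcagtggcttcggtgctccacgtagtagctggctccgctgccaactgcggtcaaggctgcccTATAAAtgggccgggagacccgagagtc
The Acan window had a GC content of 74.4%, against a median of 52.4% over all 32851 promoter windows, and held 3 GC boxes, of which a pair overlaps. The Chad window held a TATA box that begins 28 bases before the start, and the Hapln1 window held neither motif. Over all windows 12.4% held TATAAA and 32.7% held GGGCGG. The SOX core ACAATG, read on either strand, was in 10.7% of all windows and in none of the 8 windows listed for 7 of the 10 genes, which says only that these letters are absent there. Comp, Prg4 and Abi3bp had no entry.

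Acan was the most abundant of these genes in most Fgfr3-WT clones and was lower in both cKO groups. Fgfr3-WT clones 1 to 5 had 326, 606, 626, 884 and 0.475 CPM. The P28 clones 1 to 5 had 8.91, 37.7, 49.97, 5.16 and 14.1 CPM, and the P4M clones 1 to 4 had 0.323, 0.364, 0.0198 and 3.10 CPM. Fgfr3-WT clones 1 to 4 were thus above every cKO clone, all P28 clones were above all P4M clones, and Fgfr3-WT clone 5 lay among the P4M clones. In TPM, Acan ranked between 733 and 1813 among the genes of Fgfr3-WT clones 1 to 4 and at 18627 in clone 5, where 12 counts were found. Group means were 488 ± 337 (SD, n = 5), 23.2 ± 19.6 (SD, n = 5) and 0.952 ± 1.44 (SD, n = 4) CPM. The fitted log2 fold change was −4.40 ± 1.34 (SE) in P28 and −8.98 ± 1.84 (SE) in P4M against Fgfr3-WT, and −4.59 ± 1.51 (SE) in P4M against P28. Without P4M clone 4 the change in P4M against Fgfr3-WT was −11.02, and without Fgfr3-WT clone 5 the changes against Fgfr3-WT were −4.72 and −9.30. With limma on log2(TPM + 1) the change in P28 was −2.96 and was not called. The change in P4M against P28 was not called with all clones; it was −6.62 without P4M clone 4, and it was called by DESeq2, with only these groups fitted (both −4.60) and without Fgfr3-WT clone 5 (−4.58).

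**Figure D1:**
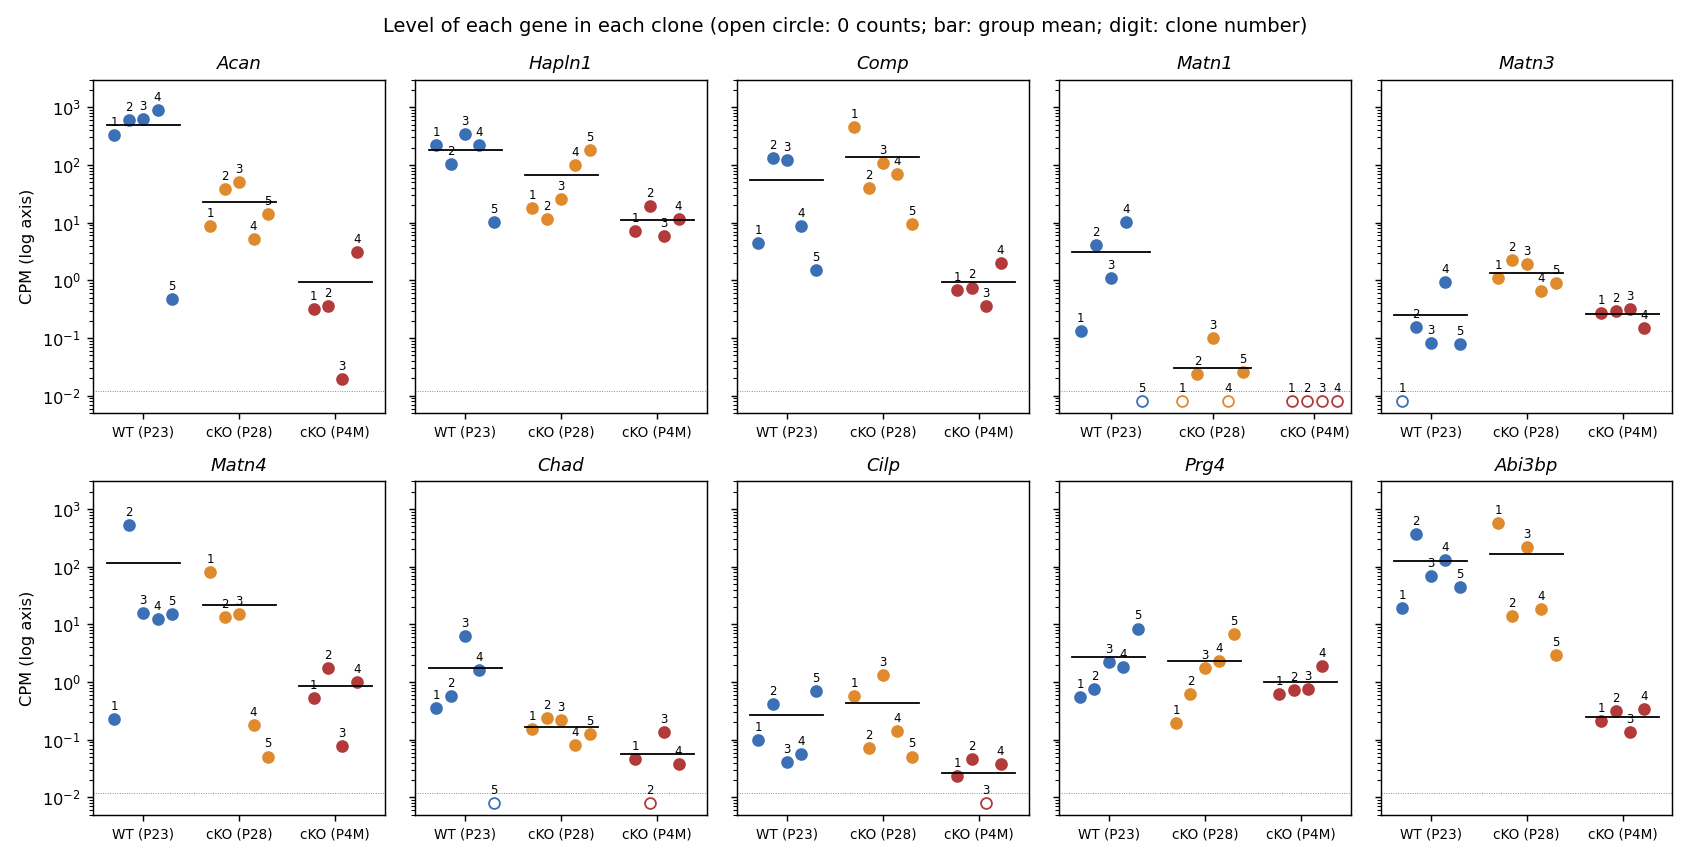
CPM on a log axis for each of the 10 genes in the 14 clones, by group; points are clones with their numbers, open circles are clones with 0 counts drawn below the axis range of the data, and bars are group means. Acan is above 300 CPM in Fgfr3-WT clones 1 to 4 and at 0.475 CPM in clone 5, while Abi3bp in every P4M clone is below every other clone.

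Fgfr3-WT clone 5 differed from the other Fgfr3-WT clones in more than Acan. It had the lowest Hapln1 (10.2 CPM), Comp (1.504 CPM), Matn1 (0 counts) and Chad (0 counts) of the Fgfr3-WT clones and the highest Prg4 (8.47 CPM). Its Trp53 level of 51.1 CPM was that of an Fgfr3-WT clone. Sox9 was at 97.9 CPM there, which is below the 109 to 187 CPM of the other Fgfr3-WT clones and above the 4.01 to 57.5 CPM of the cKO clones.

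Link protein followed aggrecan only in part. Hapln1 was at 226, 102, 338, 224 and 10.2 CPM in Fgfr3-WT clones 1 to 5. The P28 clones split, with 17.7, 11.7 and 26.1 CPM in clones 1 to 3 and 99.5 and 183 CPM in clones 4 and 5, and the P4M clones had 7.08, 19.8, 5.83 and 11.6 CPM. P28 clone 5 thus lay among Fgfr3-WT clones 1 to 4, P28 clone 4 lay just below them, and the P4M clones lay around the lowest Fgfr3-WT clone. The fitted log2 fold change was −1.41 in P28, which was not called, and −4.02 ± 1.03 (SE) in P4M against Fgfr3-WT, which was called; without P28 clone 5 the former was −2.23. Every P4M clone still held at least 295 Hapln1 counts, whereas Acan had 1 to 165 counts in them.

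The ratio of Acan to Hapln1 in TPM separated clones inside the groups. It was 1.30 to 5.72 in Fgfr3-WT clones 1 to 4 and 0.035 in clone 5. It was 0.559, 3.41 and 1.96 in P28 clones 1 to 3 and 0.0586 and 0.0838 in clones 4 and 5, and it was at most 0.276 in the P4M clones. Sp7, a transcription factor of the osteoblast lineage chosen here after its values were seen, was at 38.7 CPM in Fgfr3-WT clone 5, at 293 and 290 CPM in P28 clones 4 and 5, at 132 to 666 CPM in the P4M clones and at most 9.78 CPM in all others. The clones with a ratio of at most 0.276 were the clones with Sp7 at 38.7 CPM or more. P28 clone 1, with a ratio of 0.559, lay below Fgfr3-WT clones 1 to 4 and did not have high Sp7. As Sp7 was picked with its values known, this match is a description and no support. The summed level of the 8 osteoblast genes listed below, which include Sp7, did not split the clones in this way. It was 14902 to 22152 CPM over all P28 clones and 1339 CPM in Fgfr3-WT clone 5. Col1a1 alone was at 14680 to 22012 CPM in the P28 clones and made up most of their sum. Whether the ratio and the Sp7 level bear on each other was not tested.

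Comp and Abi3bp had another pattern, with high levels in some P28 clones and a low level in every P4M clone. Comp was at 4.40, 133, 122, 8.88 and 1.504 CPM in Fgfr3-WT clones 1 to 5, at 457, 39.3, 108, 68.4 and 9.61 CPM in P28 clones 1 to 5, and at 0.669, 0.751, 0.356 and 2.01 CPM in the P4M clones. The Fgfr3-WT and P28 clones overlapped, and P28 clone 1 was the highest of all, with Comp at rank 389 of the genes by TPM. The log2 fold change was 1.34 ± 1.15 (SE) in P28 against Fgfr3-WT, −5.82 ± 1.57 (SE) in P4M against Fgfr3-WT and −7.16 ± 1.66 (SE) in P4M against P28. The first was 0.03 without P28 clone 1 and 2.0 without Fgfr3-WT clone 2 and was not called. The call in P4M against P28 was lost without P28 clone 1 (−5.88) and without any of the 4 P4M clones (−7.84 to −6.88). In P4M against Fgfr3-WT the value was −5.17 without Fgfr3-WT clone 2 and −6.50 without P4M clone 4, and limma on log2(TPM + 1) gave −2.88 and no call.

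Abi3bp was at 18.8, 371, 70.1, 128 and 45.04 CPM in Fgfr3-WT clones 1 to 5 and at 574, 13.8, 218, 18.6 and 2.89 CPM in P28 clones 1 to 5. The P4M clones had 0.208, 0.319, 0.138 and 0.338 CPM, from 7 to 18 counts each, so that all 4 lay below every other clone. The mean of the P4M group, 0.251 ± 0.0945 CPM (SD, n = 4), was 505-fold below that of Fgfr3-WT and 660-fold below that of P28. The fitted log2 fold changes were −8.96 ± 1.78 (SE) and −9.35 ± 1.81 (SE). Without Fgfr3-WT clone 2 the former was −8.02, and without P28 clone 1 the latter was −7.95. Both calls held in all 14 fits that left out a clone. Abi3bp was selected on these levels, so that is a description and no support. In P28 against Fgfr3-WT the change was 0.39 ± 1.1 (SE), and it was −1.04 without P28 clone 1, so no direction is given.

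The 3 matrilins did not share a pattern. Matn4 rested on few clones: it was at 0.228, 530, 15.9, 12.1 and 15.2 CPM in Fgfr3-WT clones 1 to 5, at 80.8, 13.5, 15.1, 0.181 and 0.0512 CPM in P28 clones 1 to 5, and at 0.531, 1.75, 0.079 and 1.01 CPM in the P4M clones. The groups overlapped in each comparison, and in Fgfr3-WT clone 2 Matn4 alone was 47.0% of the summed TPM of the 10 genes. The log2 fold change of Matn4 was −7.09 ± 2.36 (SE) in P4M against Fgfr3-WT, a call that was lost without Fgfr3-WT clone 2 (−3.69) or without P4M clone 1, 3 or 4 (−7.18 to −6.69). The call was also lost by DESeq2 (−7.07), with no filter (−7.00) and by limma on log2(TPM + 1) (−3.11). In P28 against Fgfr3-WT it was −2.39 and turned to 1.01 without Fgfr3-WT clone 2.

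Matn1, the cartilage matrilin, was found almost only in Fgfr3-WT clones, with 4, 108, 27, 355 and 0 counts in clones 1 to 5. The P28 clones had 0, 1, 5, 0 and 1 counts, and the P4M clones had 0 counts. The highest level, 10.1 CPM, was in Fgfr3-WT clone 4, which also had the highest Acan. Matn1 did not pass the filter on low counts and was not tested. Set against the limit of 3 counts over the whole P4M group, its mean in Fgfr3-WT of 3.09 ± 4.26 CPM (SD, n = 5) was at least 197-fold higher, and without Fgfr3-WT clone 4 at least 85.3-fold higher. Matn1 was kept by 7 alternative fits (no filter, a mean CPM of at least 1, DESeq2 and the 4 fits without a P4M clone), and all 7 called it lower in P28 and in P4M against Fgfr3-WT. Nearly all its counts were in Fgfr3-WT clones, so these calls restate the levels it was selected on and are no support.

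Matn3 was low everywhere and was the only member called higher in a cKO group. It was at 0, 0.153, 0.0809, 0.939 and 0.0791 CPM in Fgfr3-WT clones 1 to 5, at 1.10, 2.29, 1.89, 0.645 and 0.897 CPM in P28 clones 1 to 5, and at 0.15 to 0.316 CPM in the P4M clones. Fgfr3-WT clone 4 lay inside the P28 range, and the other Fgfr3-WT clones lay below it. The log2 fold change in P28 against Fgfr3-WT was 2.38 ± 0.799 (SE). That call was lost without Fgfr3-WT clone 2, 3 or 5 or P28 clone 2 or 3 (2.11 to 2.25), and without Fgfr3-WT clone 4 the value was 4.10.

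Chad, Cilp and Prg4 were at low levels. Chad was at 0.358, 0.574, 6.39, 1.59 and 0 CPM in Fgfr3-WT clones 1 to 5, at 0.0806 to 0.239 CPM in P28 and at 0 to 0.138 CPM in P4M. All cKO clones together were below Fgfr3-WT clones 1 to 4 and above or at clone 5. Chad had 11, 15, 158 and 56 counts in Fgfr3-WT clones 1 to 4 and at most 11 in any cKO clone. It thus passed the filter on low counts mainly through Fgfr3-WT clones, and its calls restate the levels it was selected on. The log2 fold changes of Chad were −3.42 ± 1.07 (SE) in P28 and −4.90 ± 1.3 (SE) in P4M against Fgfr3-WT. Without Fgfr3-WT clone 3 they were −1.95, which was not called, and −3.43; the call in P28 was also lost without P28 clone 4 (−3.28), and in P4M the value was −5.82 without P4M clone 3. With limma on log2(TPM + 1) both calls were lost, at −0.77 and −0.94.

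Cilp reached 0.712 CPM in Fgfr3-WT clone 5 and 1.31 CPM in P28 clone 3, and the P4M clones had 0 to 2 counts each. No comparison of Cilp was called by edgeR with all clones, but DESeq2 called it lower in P4M against Fgfr3-WT (−3.30) and against P28 (−4.03). Of the 10 fits without a clone that kept Cilp, 5 called it lower in P4M against Fgfr3-WT (−3.44 to −3.17), and the fit without P28 clone 5 called it lower in P4M against P28 (−4.15). Prg4 was at 0.554, 0.765, 2.18, 1.79 and 8.47 CPM in Fgfr3-WT clones 1 to 5, at 0.194, 0.622, 1.73, 2.32 and 6.76 CPM in P28 clones 1 to 5, and at 0.623 to 1.90 CPM in the P4M clones. The 3 groups overlapped, and no comparison of Prg4 was called. In P28 against Fgfr3-WT the log2 fold change of Prg4 was −0.24 ± 0.864 (SE) and became 0.81 without Fgfr3-WT clone 5.

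In all, 9 of the 10 genes passed the filter on low counts. At a false discovery rate of 0.05 over 17358 tested genes, 2 of the 9 were called lower (Acan and Chad) and 1 higher (Matn3) in P28 against Fgfr3-WT, where 19.7% of all tested genes were called lower and 19.2% higher. In P4M against Fgfr3-WT, 6 were called lower (Acan, Hapln1, Comp, Matn4, Chad and Abi3bp) and 0 higher, where 23.6% of all tested genes were called lower and 22.3% higher. In P4M against P28, 2 were called lower (Comp and Abi3bp) and 0 higher, where 3.88% of all tested genes were called lower and 3.34% higher. The median log2 fold change of the 9 genes was −0.24, −4.90 and −3.90 in these comparisons, beside −0.02, −0.06 and −0.01 over all genes tested. Where 0 were called higher, 0 were higher at an unadjusted p under 0.05 as well, and DESeq2 and limma called 0. Since the genes were selected on these values, nothing is read from the counts. Leaving out Fgfr3-WT clone 5 gave 2, 6 and 3 calls in the 3 comparisons, with Matn3 lost in the first and Acan gained in the last, and leaving out Fgfr3-WT clone 3 gave 1 call in the first.

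**Figure D2:**
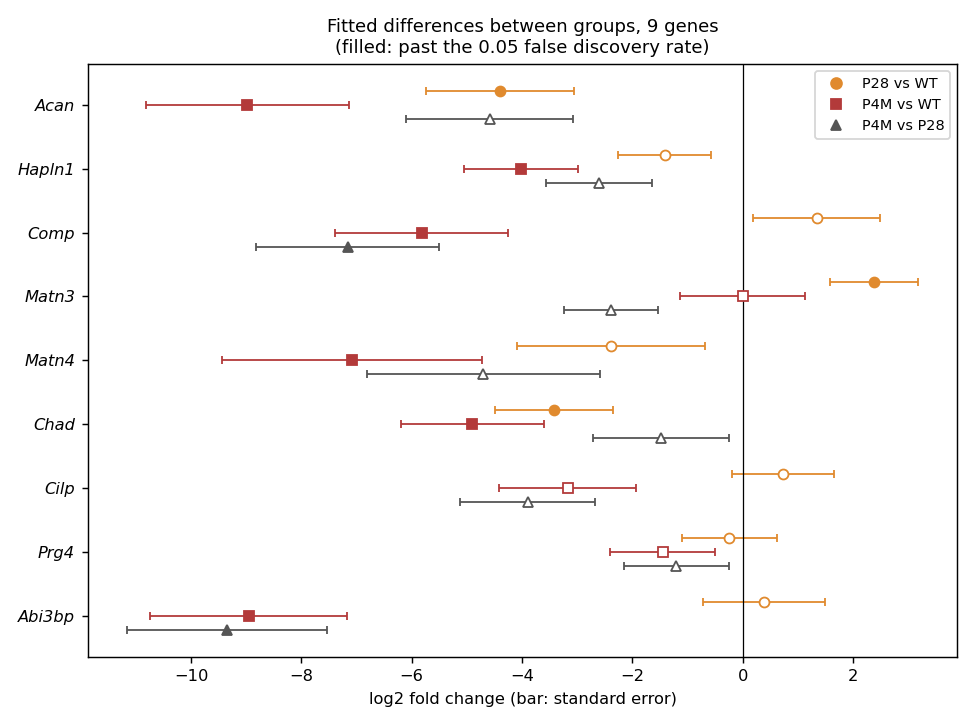
Fitted log2 fold change with its standard error for the 9 tested genes in P28 against WT, P4M against WT and P4M against P28; filled symbols passed a false discovery rate of 0.05. Acan and Abi3bp have values of −8.98 and −8.96 in P4M against WT, but in P28 against WT Acan is at −4.40 and Abi3bp at 0.39.

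On the TPM scale, which allows genes to be compared with each other, the sum of the 10 genes was 35.8 to 729 in the Fgfr3-WT clones, 63.2 to 669 in the P28 clones and 2.72 to 7.75 in the P4M clones. The P28 sums thus lay within the range of the Fgfr3-WT sums, and every P4M sum lay below both. The leading gene differed. Acan led in Fgfr3-WT clones 1, 3 and 4 with 41.9% to 63.1% of the sum, Matn4 led in clone 2 and Abi3bp led in clone 5 with 47.8%. Comp led in P28 clones 1, 2 and 4 with 49.6% to 57.1%, Abi3bp led in clone 3 with 43.1% and Hapln1 in clone 5 with 75.1%. Hapln1 led in all 4 P4M clones, with 39.2% to 65.7% of a small sum.

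**Figure D3:**
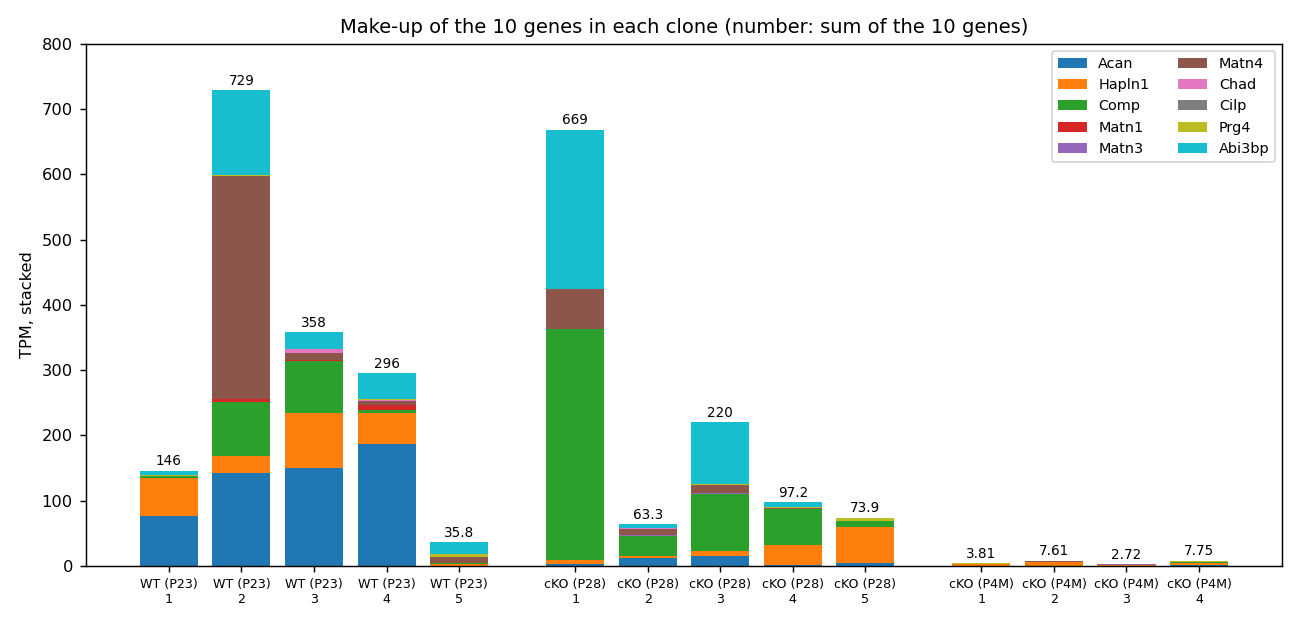
TPM of the 10 genes stacked for each clone, with the sum above each bar. Aggrecan forms the base of Fgfr3-WT clones 1 to 4, Comp and Abi3bp form most of P28 clones 1 and 3, and the P4M sums do not exceed 7.75 TPM.

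Likeness between genes was measured by Pearson's r of log2 CPM over the 14 clones and again after the mean of each group was subtracted. Clones of a group share their label, the number in their titles and a range of depth, and r carries the group differences. It is therefore a description. Acan was most like Chad (r = 0.81, Spearman 0.86), and Hapln1 was most like Acan (r = 0.80, Spearman 0.85). With group means subtracted these were 0.70 and 0.59, and without the 2 clones farthest from the median on the first gene of each pair the values over 14 clones were 0.87 and 0.73. Chad had at most 11 counts in every cKO clone and 0 in Fgfr3-WT clone 5. Its r with Acan thus rests on values near the floor in most clones. Comp and Abi3bp were each most like the other (r = 0.83; 0.73 with group means subtracted), and Matn4 and Cilp were both most like Abi3bp (r = 0.75 and 0.74). Matn3 and Prg4 stood apart, with highest values of 0.37 (with Comp) and 0.24 (with Hapln1). Hapln1 and Matn4 had r = 0.05 over the clones and −0.46 with group means subtracted. Outside the members, the genes most like Acan were 2900076A07Rik, Abhd17c and Plxnb1 (each r = 0.90), and Mthfsd and Pstk (each r = 0.89). With group means subtracted these were 0.85, 0.79, 0.77, 0.71 and 0.72, and each of the 5 had its lowest Fgfr3-WT level in clone 5.

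**Figure D4:**
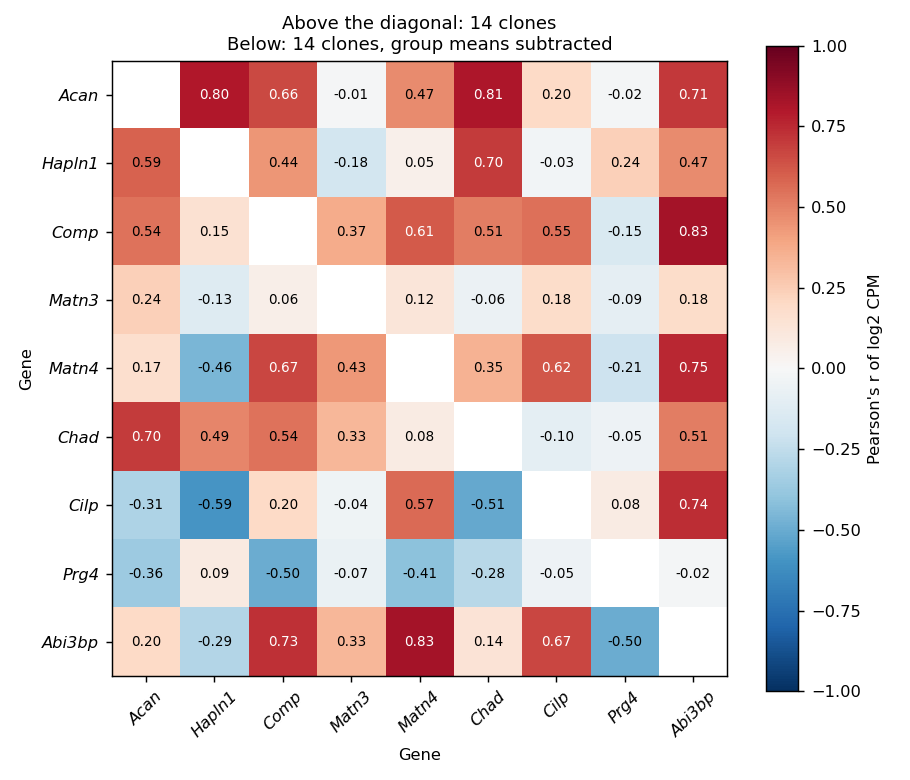
Pearson's r of log2 CPM between each pair of the 9 tested genes, over the 14 clones above the diagonal and with group means subtracted below it. Comp, Matn4 and Abi3bp have positive values with each other on both sides (0.61 to 0.83), as do Acan, Hapln1 and Chad (0.49 to 0.81). Values between these sets vary and do not separate them. Acan and Comp have 0.66 above and 0.54 below the diagonal, Acan and Abi3bp 0.71 and 0.2, and Hapln1 and Matn4 0.05 and −0.46.

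Genes other than the members were then read from the same fit, beginning with the relatives of aggrecan and link protein. Their lists were also drawn up with earlier results of these data known. The counts and p-values given for them therefore describe these clones and are no independent support. Vcan, which encodes the lectican of provisional matrix, was higher in both cKO groups. It was at 0.825 to 7.005 CPM in Fgfr3-WT, at 60.3, 1.96, 67.4, 18.4 and 4.61 CPM in P28 clones 1 to 5 and at 9.23 to 50.3 CPM in P4M, with log2 fold changes of 3.31 ± 0.925 (SE, edgeR adjusted p = 0.0127) and 3.10 ± 0.941 (SE, edgeR adjusted p = 0.0164). P28 clones 2 and 5 lay inside the Fgfr3-WT range, and every P4M clone lay above it. Hapln4, a link protein best known from the nervous system, was lower in P28 (log2 fold change −2.85 ± 0.645 (SE), edgeR adjusted p = 0.00396; −2.13 without Fgfr3-WT clone 3) and had −1.14 in P4M (adjusted p = 0.172). Hapln3, the neighbour of Acan, was at no more than 2.11 CPM in any clone. It was lower in P4M against Fgfr3-WT (log2 fold change −2.16, edgeR adjusted p = 0.0472), a call lost in 10 of the 14 fits without a clone, and had −0.91 in P28 (adjusted p = 0.345). Of the 6 genes of this list 4 were tested, and 1 was called higher and 1 lower in each cKO group against Fgfr3-WT. Over all tested genes 19.2% were called higher and 19.7% lower in P28, and 22.3% and 23.6% in P4M. Nothing is read from the counts of this list.

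Other cartilage matrix genes were lower. Of 10 listed, 7 were tested, and 5 were called lower in P28 and 6 in P4M against Fgfr3-WT. By edgeR, by DESeq2, by limma or at an unadjusted p under 0.05, 0 were higher. Over all tested genes 19.7% and 23.6% were called lower in these comparisons, and 19.2% and 22.3% higher. Ucma, which encodes a secreted protein of the upper growth plate, was at 30.7, 453, 637, 3678 and 0.356 CPM in Fgfr3-WT clones 1 to 5, at 0.0512 to 7.06 CPM in P28 and at 0 to 0.0461 CPM in P4M. Like Acan, Ucma was high in Fgfr3-WT clones 1 to 4 and low in clone 5. Its log2 fold changes were −8.86 ± 2.05 (SE, edgeR adjusted p = 0.00451) and −15.28 ± 3.04 (SE, edgeR adjusted p = 0.00146), the latter against 0 to 2 counts per clone, and without Fgfr3-WT clone 4 they were −7.08 and −13.51. Matn2, the matrilin of broadest tissue distribution, was at 300 to 719 CPM in Fgfr3-WT, 115 to 197 CPM in P28 and 30.7 to 111 CPM in P4M, so that the 3 groups did not overlap. Its log2 fold changes against Fgfr3-WT were −1.60 (edgeR adjusted p = 0.00257) and −2.90 (edgeR adjusted p = 0.000118), and in P4M against P28 it was −1.30 (edgeR adjusted p = 0.0451; the call was lost in 9 of 14 fits without a clone). The Matn2 level in Fgfr3-WT clone 5, 413 CPM, was within the range of the other Fgfr3-WT clones.

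Chondroitin sulfate chains are built on the aggrecan core by enzymes of which several had lower counts in the cKO clones. All 24 listed genes were tested. In P28 against Fgfr3-WT 12 were called lower and 3 higher, and in P4M against Fgfr3-WT 11 lower and 3 higher, with median log2 fold changes of −0.68 and −0.66. Over all tested genes 19.7% were called lower and 19.2% higher in P28, and 23.6% and 22.3% in P4M. By limma on log2(TPM + 1) 7 were called lower in each comparison, and 3 and 4 higher. Xylt1, which adds the first sugar of the chain to the core protein, had log2 fold changes of −3.53 ± 0.782 (SE, edgeR adjusted p = 0.00345) and −4.49 ± 0.901 (SE, edgeR adjusted p = 0.00153) and was at 11.8 CPM in Fgfr3-WT clone 5, against 53.03 to 317 CPM in the other Fgfr3-WT clones. Csgalnact1, which starts the chondroitin repeat, was lower in P28 (−2.78, edgeR adjusted p = 0.00232), in P4M (−5.35, edgeR adjusted p = 0.000124) and in P4M against P28 (−2.57, edgeR adjusted p = 0.0287; lost in 6 of 14 fits without a clone). Chst11, the main chondroitin 4-O-sulfotransferase, was at 109 to 890 CPM in Fgfr3-WT, 21.0 to 39.8 CPM in P28 and 28.7 to 96.8 CPM in P4M, with no overlap between Fgfr3-WT and either cKO group; its log2 fold changes were −3.53 (edgeR adjusted p = 0.000319) and −2.44 (edgeR adjusted p = 0.00312), and −2.94 and −1.84 without Fgfr3-WT clone 1. Chst15, which adds a further sulfate to 4-sulfated chains, moved the other way, from 0.391 to 2.10 CPM in Fgfr3-WT to 4.77 to 11.5 CPM in P28 and 9.56 to 19.0 CPM in P4M (log2 fold changes 2.57 and 3.74, edgeR adjusted p = 0.000813 and 9.36e-05). In P4M against P28, 1 gene of the list was called lower and 1 higher, beside 3.88% and 3.34% of all tested genes.

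Of 12 listed genes, matrix-cleaving enzymes and the inhibitor Timp3, 10 were tested. In P28 against Fgfr3-WT 5 were called higher and 1 lower, and in P4M 4 higher and 1 lower. Over all tested genes 19.2% were called higher and 19.7% lower in P28, and 22.3% and 23.6% in P4M. The aggrecan-cleaving Adamts4 was at 0.162 to 5.26 CPM in Fgfr3-WT, 6.96 to 15.6 CPM in P28 and 10.9 to 23.0 CPM in P4M, with log2 fold changes of 2.84 ± 0.678 (SE, edgeR adjusted p = 0.00539) and 3.52 ± 0.713 (SE, edgeR adjusted p = 0.00162). Without Fgfr3-WT clone 5, which had the highest Fgfr3-WT level, these were 4.03 and 4.71. Adamts5 was likewise higher in P28 and P4M (2.68 and 2.83, edgeR adjusted p = 0.000298 and 0.000195), and no cKO clone overlapped the Fgfr3-WT clones. Adamts1 was higher in both groups (3.66 and 2.47, edgeR adjusted p = 0.00331 and 0.0214; the latter was 0.0509 without P4M clone 3, and the former fold was 2.94 without P28 clone 5). Adamts12 was also higher in both (2.66 and 2.95, edgeR adjusted p = 0.00791 and 0.00458; 3.60 and 3.92 without Fgfr3-WT clone 1), and Adamts9 was higher in P28 (3.05, edgeR adjusted p = 0.012; 3.67 without Fgfr3-WT clone 2) and had 0.48 in P4M (adjusted p = 0.666). Mmp3, stromelysin, was lower in P28 (−3.27, edgeR adjusted p = 0.0351; lost in 7 of 14 fits without a clone) and P4M (−5.68, edgeR adjusted p = 0.00561; −7.25 without P4M clone 3). In P4M against P28 edgeR called 0 of this list, 1 was lower at an unadjusted p under 0.05, DESeq2 called 1 higher and 1 lower, and limma called 1 lower. Over all tested genes edgeR called 3.34% higher and 3.88% lower there.

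**Figure D5:**
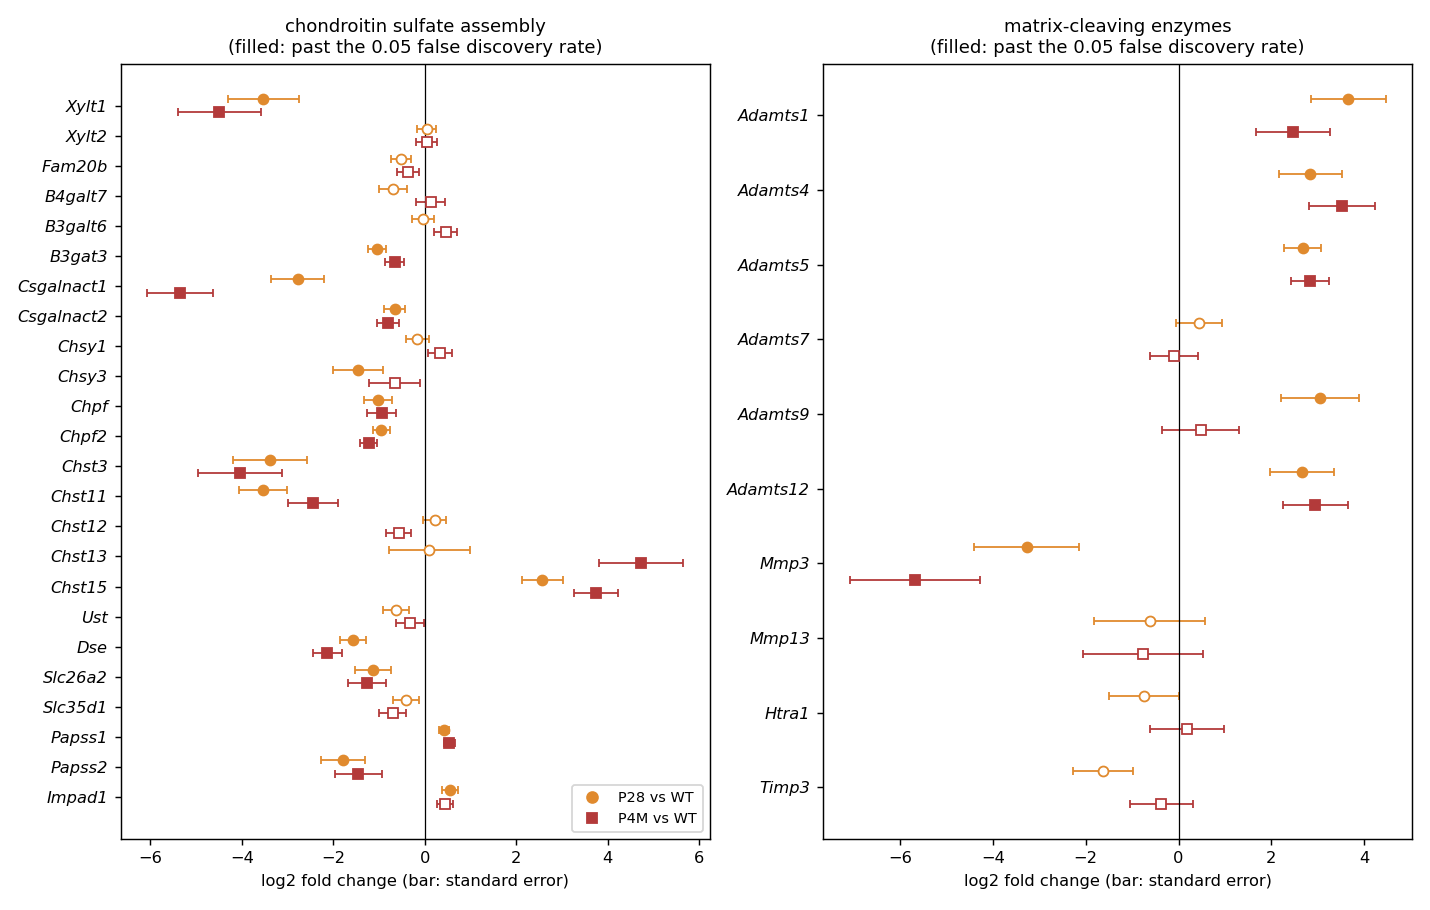
Log2 fold change with its standard error in P28 and P4M against WT, for the genes of chondroitin sulfate assembly at left and the tested matrix-cleaving enzymes with Timp3 at right; filled symbols passed a false discovery rate of 0.05. Xylt1, Csgalnact1 and Chst11 lie to the left of 0 and Chst15 to the right. Adamts1, Adamts4, Adamts5 and Adamts12 lie to the right in both cKO groups.

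The SOX trio was also lower. Sox9 was at 187, 109, 161, 159 and 97.9 CPM in Fgfr3-WT clones 1 to 5, at 18.1 to 57.5 CPM in P28 and at 4.01 to 28.5 CPM in P4M, with log2 fold changes of −2.16 ± 0.501 (SE, edgeR adjusted p = 0.00457) and −3.39 ± 0.578 (SE, edgeR adjusted p = 0.000536). In P4M against P28 it was −1.23 (adjusted p = 0.161), and the P28 and P4M ranges overlapped. Sox6 was lower in both (−1.51 and −4.57, edgeR adjusted p = 0.0151 and 6.1e-05; the former was 0.0683 by limma on log2(TPM + 1)) and in P4M against P28 (−3.06, edgeR adjusted p = 0.00722). Sox5 had −1.51 in P28 (adjusted p = 0.063) and was lower in P4M against Fgfr3-WT (−5.62, edgeR adjusted p = 0.000182) and against P28 (−4.11, edgeR adjusted p = 0.00978). Sox5 in P4M, at 0.364 to 1.36 CPM, was below every other clone, as Abi3bp was.

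Markers of skeletal cell types moved with these groups, and their part in the values above was not tested. Of 10 other chondrocyte genes (the SOX trio and cartilage collagens), 6 were called lower in P28 and 9 in P4M against Fgfr3-WT; their summed level was 2019 to 27522 CPM in Fgfr3-WT with clone 5 lowest, 1780 to 2542 CPM in P28 and 76.8 to 1196 CPM in P4M, and none was at 0 throughout a group. Of 8 osteoblast genes, 3 were called higher in P28 and 7 in P4M, and their sum was 45.5 to 1339 CPM in Fgfr3-WT with clone 5 highest, 14902 to 22152 CPM in P28 and 8937 to 54519 CPM in P4M. Summed tendon and ligament markers were 67.0 to 6229 CPM in Fgfr3-WT, 125 to 480 CPM in P28 and 91.1 to 177 CPM in P4M; of 6 listed, 4 were tested, with 1 higher and 2 lower in P28 and 2 higher and 2 lower in P4M, and Tnmd was at 0 in all Fgfr3-WT clones and Kera in all cKO clones. The 4 joint surface markers summed to 1.98 to 69.5 CPM in Fgfr3-WT with clone 5 highest, 4.67 to 29.1 CPM in P28 and 11.3 to 23.3 CPM in P4M. Of them 1 was called higher in each cKO group, 2 were called lower in P28 and 3 in P4M, and Gdf5 was at 0 in P4M.

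Markers of blood cells were at or near 0. The 5 haematopoietic markers summed to at most 0.359 CPM in any clone, and the endothelial gene Cdh5 was at 0 in all 14 clones. The 5 endothelial markers summed to 0.0809 to 0.74 CPM in Fgfr3-WT, 0.41 to 4.49 CPM in P28 and 2.75 to 12.8 CPM in P4M, and of them only Kdr was tested and was higher in P28 and P4M (log2 fold changes 3.61 and 5.56, edgeR adjusted p = 0.019 and 0.00224). The 4 smooth muscle and pericyte markers summed to 1.99 to 102 CPM in Fgfr3-WT, 1074 to 2749 CPM in P28 and 306 to 483 CPM in P4M, with 3 called higher in P28 and 2 higher and 1 lower in P4M. The 6 marrow reticular and adipocyte markers summed to 12.1 to 373 CPM in Fgfr3-WT, 432 to 607 CPM in P28 and 141 to 533 CPM in P4M. Of them 4 were tested, and Lepr was called higher in both cKO groups. Over all tested genes 19.2% were called higher and 19.7% lower in P28, and 22.3% and 23.6% in P4M.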

How the data were processed

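RNA of 14 cultured clones was sequenced by the authors as single-end reads from SMART-Seq v4 cDNA. By the submitters' processing notes and the study's methods, reads were aligned to mm10 with TopHat and Bowtie2 and counted with HTSeq; versions are not given in the sources used here. The deposited gene table holds raw counts of unambiguously mapped reads, and the TPM table deposited by the authors was normalized for length and depth. Other deposited tables (depth-normalized counts, rlog, FPKM and expected counts) were not used. No per-sample column was left unmapped.

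Counts were fitted with edgeR 4.0.16 in R 4.3.3 (robust quasi-likelihood fit, TMM scaling, filterByExpr with the 3 groups, all 14 clones) and p-values were adjusted by Benjamini-Hochberg over the 17358 genes kept. The steps were tested on simulated data. Log2 CPM used a prior count of 2. Tables were made in Python 3.11.15 with scipy 1.17.1. The genes and all lists were chosen with earlier results of these data known. Beside the 10 genes, the named genes are the 3 called genes with the largest change in each list (mean log2 CPM of at least 1), Vcan, Hapln3 and the SOX trio, and the 5 genes most like Acan. Sp7, Adamts5 and the marker genes named singly (Kdr, Lepr, Tnmd, Kera, Gdf5 and Cdh5) were chosen after their values were seen. Alternatives were RLE or no scaling, DESeq2 1.42.0, other filters, a fit of only the groups compared, limma 3.58.1 on log2(TPM + 1) and leaving out each clone. Clone numbers are running numbers and pair nothing.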

Additional observations from a re-analysis of the deposited data

Results flagged for a closer look

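Acan in Fgfr3-WT clone 5, at 0.475 CPM, lay far from the other Fgfr3-WT clones, which were between 326 and 884 CPM. On the log2 scale its gap to the nearest clone was 0.866 of the range of the group, where Dixon's limit for 5 samples is 0.71. The test was made for 27 combinations of gene and group, of which 1 was flagged, and chance flags about 1 in 20.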

How the results depend on the processing

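For both cKO groups set against Fgfr3-WT, the counts of all genes and of the other listed genes called stayed within 1.5 times of the reported ones under every alternative. In P4M against P28 edgeR called 1254 of all genes, 3051 when only these groups were fitted and 2814 by DESeq2, and 480 (without P4M clone 1) to 2132 (without Fgfr3-WT clone 1) when a clone was left out. Of the other listed genes 3 were called there, against 8 with only these groups, 9 by DESeq2, 6 by limma and 1 to 4 without a clone. Of the genes described here, 3 were called in P28 against Fgfr3-WT, against 1 with only these groups, 1 by limma and 1 to 4 without a clone, where the fits without a P4M clone also kept and called Matn1. For P4M set against Fgfr3-WT 6 were called, with 3 by limma and 5 to 7 without a clone, and for P4M set against P28 2 were called, against 4 with only these groups, 6 by DESeq2 and 1 to 3 without a clone. The causes were not tested. Of 541 refitted fold changes of these genes, 523 moved by less than the spread between clones, 18 moved further, 13 of them with limma on log2(TPM + 1), whose pseudocount shrinks low genes, and 0 of the called changes turned sign. That scale moved the median of all genes to 0.2 for P28 set against Fgfr3-WT and −0.139 for P4M set against P28, and the share of calls that were higher from 49.4% to 72.6% and from 46.3% to 23.9%; without scaling the latter was 33.2%. Cilp could not be tested without some clones because it failed the filter. At the depth used, a gene at 0 counts in a clone may be present at up to 3 counts, which limits Matn1, Matn3, Chad and Cilp.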
